A study of Mus musculus with 32 samples.

Results

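Clear cell sarcoma and synovial sarcoma are soft tissue tumours that, in patients, are each driven by a gene fusion. The comparison here set the 13 mouse clear cell sarcoma libraries of the series against its 6 synovial sarcoma libraries, 19 of 32 libraries in all, chosen by their source labels. The clear cell sarcomas carry EA1 in their titles and had been started by Cre, a DNA recombinase, supplied in 4 ways. The sources were Bmi1IRESCreERT2 in 2 tumours, Prx1CreERT2 in 2, TATCre in 4 and Rosa26CreER in 5. All 6 synovial sarcomas carry Myf5-SSM2/PLUC in their titles, with the numbers 37-4, 37-7, 37-8, 39-5, 39-9 and 44. The labels spell out neither EA1 nor SSM2 nor PLUC and give no strain, age or tamoxifen dose. Tumour type, engineered allele and Cre source change together between the groups, so their contributions cannot be told apart. The other 13 libraries, 7 osteosarcomas titled Rb1p53 with Col1Cre or Prx1Cre and 6 controls, 5 titled Chest and 1 Bone, entered the model and serve below as outside reference points.

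As background, EWSR1-ATF1, the usual fusion of human clear cell sarcoma, joins the activation region of an RNA-binding protein to ATF1, a DNA-binding factor that normally answers to cyclic AMP signalling. The fused factor acts without that signal, and human tumours commonly show melanocyte markers. SS18-SSX, the fusion of human synovial sarcoma, instead places an SSX tail on SS18, a subunit of the BAF chromatin remodelling complex, and alters where that complex acts. CreER and CreERT2 are forms of Cre switched on by tamoxifen, and TATCre is Cre protein fused to a peptide that carries it across the cell membrane. Rosa26 is a locus expressed in most cell types, Prx1 marks limb mesenchyme, Bmi1 is expressed in stem and progenitor cells, and Myf5 marks early muscle precursors.

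Levels were deposited as RPKM, a read number scaled for transcript length and for library depth. They cover 55419 transcripts, which carry UCSC identifiers. These identifiers are not paired with gene symbols in the files, nor were they found in the reference tables used here. The tumour labels were therefore not checked against marker genes, gene groups could not be described, and no sequence is printed. Results are given for sets of transcripts and for 4 single transcripts, 2 in each direction, taken by size of difference among those without overlap between the groups, with a mean of at least 5 RPKM in the higher group and a length of at least 200 bases. The rule was met by 171 higher and 442 lower transcripts, with median log2 fold changes of 2.69 and -2.42. Depth was read from the spacing of low RPKM values and was 9.54 ± 1.22 M reads in clear cell sarcoma (SD, n = 13) and 10.3 ± 1.72 in synovial sarcoma (n = 6), a difference inside the spread between libraries (exact permutation test, two-sided, p = 0.282). In bulk tumour RNA, fewer cells of a type and less RNA per cell cannot be told apart.

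Of 19 libraries, 16 had as their nearest library one of their own tumour type, by Spearman correlation over the tested transcripts. Rosa26CreER 2 and synovial sarcoma 44 were each other's nearest library (rho 0.893), and TATCre N178-Lleg lay nearest to synovial sarcoma 39-5 (rho 0.882). Over transcripts with a length of at least 100 bases, all 19 were nearest to their own type. Counts below are given with these 3 libraries. Only 4 results were also compared without all 3. They were the calls of the main contrast, the transcripts without overlap, the transcripts above 0 per library and the fold changes of the 4 printed transcripts. The synovial sarcomas that share a title number were no closer in profile than the others, with a mean rho of 0.843 over 4 pairs against 0.850 over the other 11 pairs. The labels do not say whether libraries of 1 group came from separate animals, so the p-values measure the spread between libraries, which may be partly technical.

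The tumour types differed widely. At a limma adjusted p under 0.05, 3403 of the 15230 tested transcripts (22.3%) passed, with 864 (5.67%) above and 2539 (16.7%) below the synovial sarcomas. On the deposited scale the set higher in clear cell sarcoma had a median log2 fold change of 1.70, against a median size of 1.29 in the lower set. At least 2-fold differences made up 695 higher (4.56% of those tested) and 1678 lower transcripts (11%). That surplus of larger differences among the higher calls was not seen on the other scales described below, where at least 2-fold differences were 1138 of 1765 higher and 954 of 1405 lower calls (quantile) and 859 of 1284 and 1135 of 1615 (median ratio). On the deposited scale at least 8-fold differences numbered 155 higher and 275 lower, and at least 32-fold differences 31 and 37. All fold changes are on the scale of log2(RPKM + 1), which understates the change of transcripts with low values. Leaving out Rosa26CreER 2, TATCre N178-Lleg and synovial sarcoma 44 together gave 703 higher and 2735 lower transcripts. With libraries of a common title number averaged (37 and 39 in synovial sarcoma, N123 in TATCre), the model left 1362 calls, 389 higher and 973 lower.

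The surplus of lower calls changed with the scaling between libraries. With RPKM as deposited, 25.4% of the calls were higher in clear cell sarcoma. The median log2 fold change over all tested transcripts was then -0.30. Median ratio scaling, which divides each library by its median ratio to a common reference, shifted that median by 0.18 and called 1284 higher (8.43%) and 1615 lower transcripts (10.6%), 19% of those tested. Quantile normalization, which gives all libraries the same distribution of values, shifted it by 0.32 and called 1765 higher (11.6%) and 1405 lower (9.23%), 20.8% in all. The direction of the majority thus turned under quantile normalization, where 55.7% of the calls were higher. Of the transcripts called on both scales, 0 were called in opposite directions between the deposited scale and either alternative. The scales share the same libraries, so opposite calls could hardly arise and this count adds no support.

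Both alternatives moved the fold changes upwards, which by construction favours keeping higher calls and losing lower ones. Of the 864 transcripts higher on the deposited scale, 838 (97.0%) were called higher on every scale, 676 of them by at least 2-fold on every scale. Of the 2539 lower transcripts, 1191 (46.9%) were called lower on every scale, 886 of them by at least 2-fold. After quantile normalization a further 919 transcripts were called higher that had not been called on the deposited scale.

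**Figure D1:**
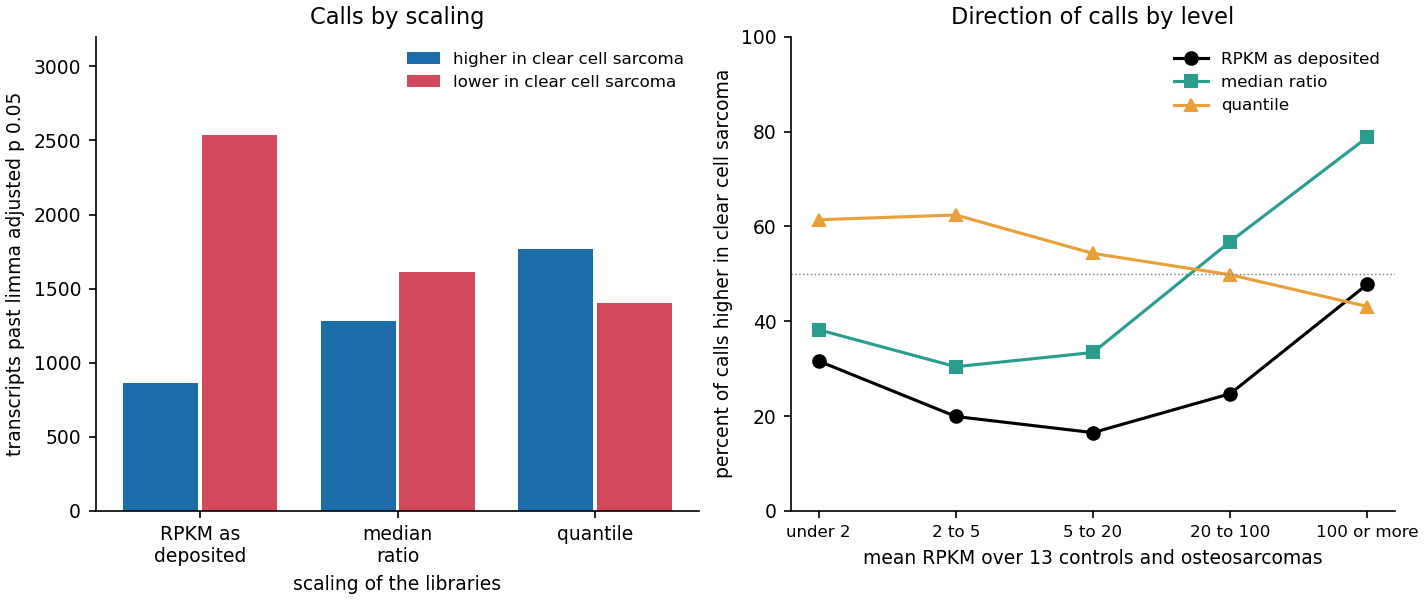
Left, the number of transcripts past a limma adjusted p of 0.05 in clear cell sarcoma against synovial sarcoma, higher (blue) and lower (red), under 3 scalings of the libraries. Right, the percent of calls that were higher in clear cell sarcoma (vertical axis) in 5 classes of mean RPKM over the 13 controls and osteosarcomas (horizontal axis); on the deposited scale it lay between 16.5% and 47.8%, and after quantile normalization between 43.1% and 62.4%.

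The share of higher calls was also read by transcript level, in classes set by the mean RPKM over the 13 controls and osteosarcomas, which are in neither group compared. On the deposited scale lower calls were in the majority in all 5 classes. Among the 1622 transcripts at 100 RPKM or more, 109 were higher and 119 lower in clear cell sarcoma, so that 47.8% of the calls were higher. Among the 4053 transcripts at 5 to 20 RPKM, 152 were higher and 770 lower, or 16.5% higher. With median ratio scaling the share of higher calls was 38.2% under 2 RPKM, 30.4% at 2 to 5 RPKM and 78.8% at 100 RPKM or more. After quantile normalization it was 61.4% under 2 RPKM and 43.1% at 100 RPKM or more, so the pattern across levels turned with the scaling. Classes set by the mean over all 32 libraries gave 63.3% higher calls at 100 RPKM or more on the deposited scale, but that mean contains the compared libraries, 13 of one type and 6 of the other, and so depends on the direction itself.

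The number of transcripts detected per library was lower in clear cell sarcoma on average, a difference that did not pass after adjustment. Transcripts above 0 numbered 11894 to 14625 in the 13 clear cell sarcomas (median 13210) and 13763 to 15576 in the 6 synovial sarcomas (median 14332). The ranges overlapped, and the means were 13379 ± 908 (SD, n = 13) and 14469 ± 617 (n = 6), a difference of -1091 (exact permutation test, two-sided, p = 0.0178, or 0.0623 when adjusted over 7 measures of the libraries). At 1 RPKM or more the difference was -1285 transcripts (exact permutation p = 0.00767, adjusted p = 0.0537). The 10 most abundant transcripts took 13.4% ± 4.14 of the reads in clear cell sarcoma (SD, n = 13) and 16.2% ± 5.37 in synovial sarcoma (n = 6), a difference within the spread (exact permutation p = 0.230). The part of detection in the direction of the calls was not tested.

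Longer transcripts were called more often. Of the 4435 transcripts of 2000 bases or more, 32.5% were called, against 11% of the 1603 shorter than 100 bases. On so short a transcript 1 read adds more RPKM than on a longer one. The lower calls outnumbered the higher ones in all 5 length classes on the deposited scale, with 20.8% of calls higher at 2000 bases or more and 33.5% at 500 to 1000 bases. After quantile normalization the share was 36.7% under 100 bases and 51.2% to 63.8% in the other 4 classes.

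Among the higher transcripts meeting the rule, the largest fold was that of uc007equ.1, with a recovered length of 3083 bases. In the Rosa26CreER tumours it had 2692, 1923, 1585, 1567 and 992 RPKM. In the TATCre tumours it had 1272, 1144, 1163 and 789 RPKM, in the Prx1CreERT2 tumours 1022 and 494, and in the Bmi1IRESCreERT2 tumours 919 and 199. The 6 synovial sarcomas had 1.8 to 5.92 RPKM, which stands for 49 to 227 reads, so the groups were far apart. The fitted log2 fold change was 7.95 (limma SE 0.55, adjusted p = 7.06e-13). The lowest clear cell sarcoma, Bmi1IRESCreERT2 2, still held 6729 reads of it. Levels in the 4 Cre groups did not differ past the test (limma F test, adjusted p = 0.359).

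Transcript uc009czd.1, of 2073 bases, was the steadier of the pair. It had 140 to 638 RPKM in the 13 clear cell sarcomas, with a median of 443. The TATCre tumours were high, with 638, 507, 629 and 594 RPKM, whereas Rosa26CreER 2, with 140, and Bmi1IRESCreERT2 2, with 184, were low. Synovial sarcoma 39-9 was listed at 0, and the other 5 had 0.389 to 0.997 RPKM, or 9 to 27 reads. The fitted log2 fold change was 7.88 (limma SE 0.29, adjusted p = 2.44e-19). The Cre groups did not differ past the test here either (limma F test, adjusted p = 0.0756).

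Among the lower transcripts meeting the rule, the largest difference was that of uc007ytx.1, of 599 bases. Of 13 clear cell sarcomas 11 were listed at 0, and the other two, TATCre N123-Rleg and TATCre N178-Lleg, had 22 and 4 reads (3.19 and 0.609 RPKM). Synovial sarcomas 37-4, 37-7 and 37-8 had 16, 1271 and 2009 RPKM, 39-5 and 39-9 had 690.5 and 28, and 44 had 84.4. Every synovial sarcoma was thus above every clear cell sarcoma, but the 6 values spread widely, also within the title numbers 37 and 39. The fitted log2 fold change was -7.47 (limma SE 0.71, adjusted p = 1.24e-09). All 6 controls and 6 of the 7 osteosarcomas were listed at 0, and the other osteosarcoma, titled Col1Cre with the number 31, had 17.3 RPKM.

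Transcript uc009bax.2, of 756 bases, was more even among the synovial sarcomas. Libraries 37-4, 37-7 and 37-8 had 270.3, 413 and 258 RPKM, 39-5 and 39-9 had 238 and 341, and 44 had 61.6, the low value of the group. Of the clear cell sarcomas 5 were listed at 0, and the highest was Rosa26CreER 3 with 5.52 RPKM, or 46 reads. The fitted log2 fold change was -7.02 (limma SE 0.45, adjusted p = 1.50e-13). The controls had up to 6.26 RPKM and the osteosarcomas up to 3.26. Neither of the transcripts lower in clear cell sarcoma differed between the Cre groups past the test (limma F test, adjusted p = 0.962 for uc007ytx.1 and 0.749 for uc009bax.2). A value listed at 0 need not mean absence.

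**Figure D2:**
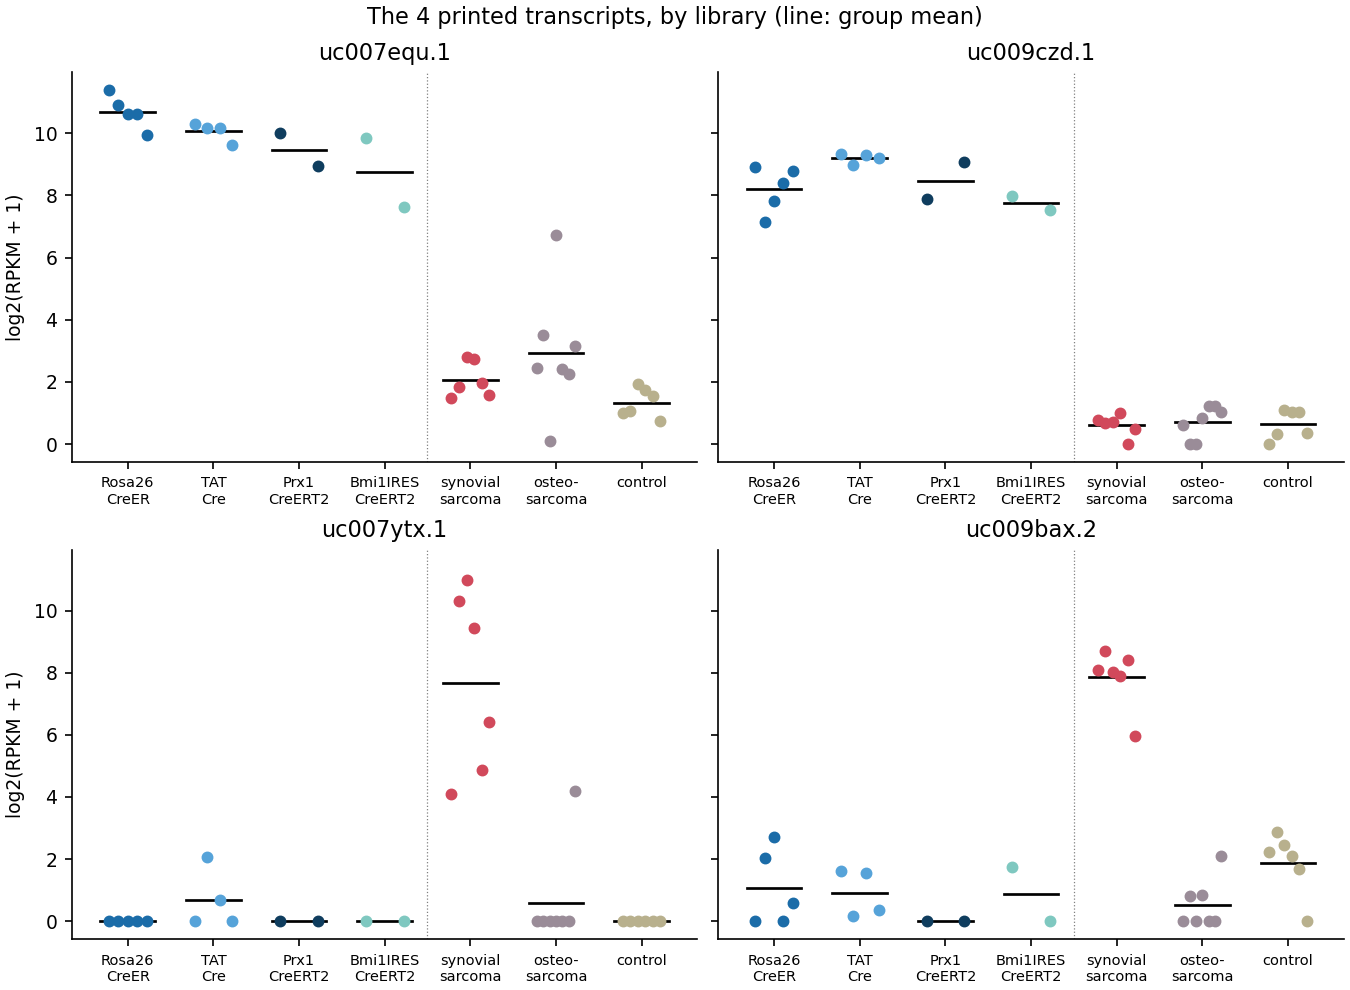
Each point is a library, placed by log2(RPKM + 1) on the vertical axis and by group on the horizontal axis (clear cell sarcoma in 4 Cre groups, left of the dotted line), with a line at the group mean. The clear cell sarcomas sit well above every other group in the upper panels except 1 osteosarcoma at 104.5 RPKM of uc007equ.1, and the synovial sarcomas stand apart in the lower panels, with a wide spread for uc007ytx.1.

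Differences that held in every library were also more frequent towards synovial sarcoma on the deposited scale. In 744 of the 15230 transcripts (4.89%) the 13 clear cell sarcomas and the 6 synovial sarcomas did not overlap, 200 (1.31%) with all clear cell sarcomas above and 544 (3.57%) with all below. Of these, 200 and 539 were also called by limma, and 199 and 449 were called on all 3 scales. With median ratio scaling 302 transcripts without overlap lay above and 470 below. On quantile-normalized values the counts of transcripts without overlap were even, at 354 above and 355 below. Synovial sarcoma 44 was the nearest synovial library to the clear cell range in 342 of the 744 transcripts. Without synovial sarcoma 44 alone, 218 transcripts lay above and 880 below. Without Rosa26CreER 2, TATCre N178-Lleg and synovial sarcoma 44, 233 transcripts lay above and 969 below. Over the same tested transcripts, leaving out libraries can only keep or raise such counts. The rise in both cases therefore adds no support.

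Transcripts at a clear level in 1 tumour type and near 0 in the other were few. In 6 transcripts all clear cell sarcomas had at least 5 RPKM while all synovial sarcomas had less than 1, and in 21 the reverse held. The 27 were all of 200 bases or more and were called on all 3 scales. The rule used the same libraries and all but ensures such calls, so they add no support. The mean level of the 21 in synovial sarcoma ranged from 9.74 to 149.9 RPKM. Of the 21, 16 were also under 1 RPKM in all 6 controls and all 7 osteosarcomas. Of the 6 higher in clear cell sarcoma, 2 were under 1 RPKM in all of these. These 16 and 2 passed the filter of 1 RPKM in at least 6 libraries only through the type where they were high. The same share over all tested transcripts was not taken, so these counts only describe the sets. A further rule, at least 1 RPKM in every library of 1 type and listed at 0 in every library of the other, found 2 transcripts for clear cell sarcoma and 19 for synovial sarcoma. The rule asks for 13 libraries in one direction and for 6 in the other, so these pairs of counts are not on an equal footing.

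The controls and osteosarcomas, whose levels did not enter the contrast, were placed against both tumour types. On the deposited scale they mostly lay nearer to the type with the lower mean, in the higher and the lower set alike. The sets were chosen by which type was high, so part of this placement follows from the choice. For the 838 transcripts higher on all 3 scales, the control mean was nearer to synovial sarcoma than to clear cell sarcoma in 799 (95.3%), and the osteosarcoma mean in 651 (77.7%). Over all tested transcripts, which include both directions, these shares were 50.2% and 46.0%. In this set the mean log2(RPKM + 1) was 4.83 in clear cell sarcoma, 2.78 in synovial sarcoma, 2.99 in osteosarcoma and 2.27 in the controls. For the 1191 transcripts lower on all 3 scales, the control mean was nearer to clear cell sarcoma in 905 (76.0%) and the osteosarcoma mean in 890 (74.7%), against 49.8% and 54% over all tested transcripts. Their mean was 4.51 in synovial sarcoma, 2.26 in clear cell sarcoma, 2.64 in osteosarcoma and 2.60 in the controls. The control mean lay below both tumour types in 619 of the 838 and 558 of the 1191, and in 9047 of all 15230 tested transcripts. With quantile normalization the control mean was nearer to synovial sarcoma in 87.9% of the 838 and nearer to clear cell sarcoma in 62.1% of the 1191, against 56.8% and 43.2% over all tested transcripts. The placement of the lower set depended on the scale: over all 2539 lower transcripts the control mean was nearer to clear cell sarcoma in 69.4% as deposited, against 49.8% over all tested transcripts, and in 49.4% after quantile normalization, against 43.2%. No test was made of these shares.

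The share of reads in the called transcripts gave another view of the same sets. The 864 higher transcripts took 12% to 28.5% of the reads in the clear cell sarcomas (median 20.9%, n = 13) and 4.07% to 5.94% in the synovial sarcomas (median 5.19%, n = 6). The 2539 lower transcripts took 4.98% to 11.2% in the clear cell sarcomas (median 6.40%) and 15.7% to 21.7% in the synovial sarcomas (median 20%). These libraries chose the sets, so the shares describe them and support nothing further. In the controls the higher set took 2.51% to 3.34% and the lower set 13.2% to 16.1%, and in the osteosarcomas 4.92% to 11.2% and 6.08% to 12.1%. By reads the controls therefore lay nearer to synovial sarcoma in the lower set, whereas by number of transcripts 69.4% of that set lay nearer to clear cell sarcoma on the deposited scale. Within a clear cell sarcoma the 10 most abundant members of the higher set held a median of 27.3% of its reads, and within a synovial sarcoma those of the lower set held 18%.

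**Figure D3:**
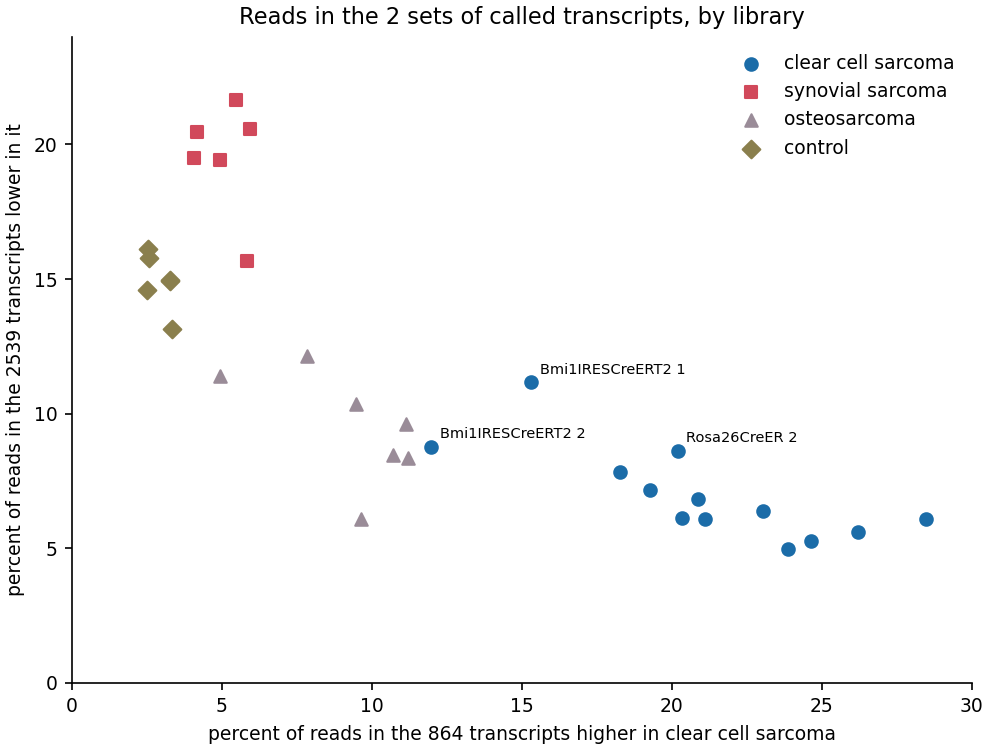
Each point is 1 of 32 libraries, placed by the percent of its reads in the 864 transcripts higher in clear cell sarcoma (horizontal axis) and in the 2539 lower ones (vertical axis). The clear cell and synovial sarcomas separate on both axes, Bmi1IRESCreERT2 2 has the lowest higher-set share of the clear cell sarcomas at 12%, and the osteosarcomas and controls lie to the left of all clear cell sarcomas.

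Libraries of 1 tumour type followed the contrast to different degrees. For each called transcript the midpoint between the mean levels of both tumour types was taken on the deposited scale, and the transcripts of a library on the far side of it were counted. The same libraries set the sets and the midpoints, and each weighs more in the smaller synovial group. The shares are therefore descriptive and not on an equal footing between the types. In Bmi1IRESCreERT2 1, 32.4% of the higher set and 37.5% of the lower set lay on the synovial side. Rosa26CreER 2 had 20.1% and 31.1% there. Prx1CreERT2 4 had 12.3% and 4.57%. Bmi1IRESCreERT2 2, TATCre N123-Rleg and TATCre N179-Larm were uneven, with 33.1%, 26% and 26% of the higher set but 10.7%, 9.93% and 12.4% of the lower set on the synovial side. Among the synovial sarcomas, 44 had 34.9% of the lower set on the clear cell side, although 4.51% of the higher set, and the other 5 had 2.13% to 16.5% of the lower set there.

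**Figure D4:**
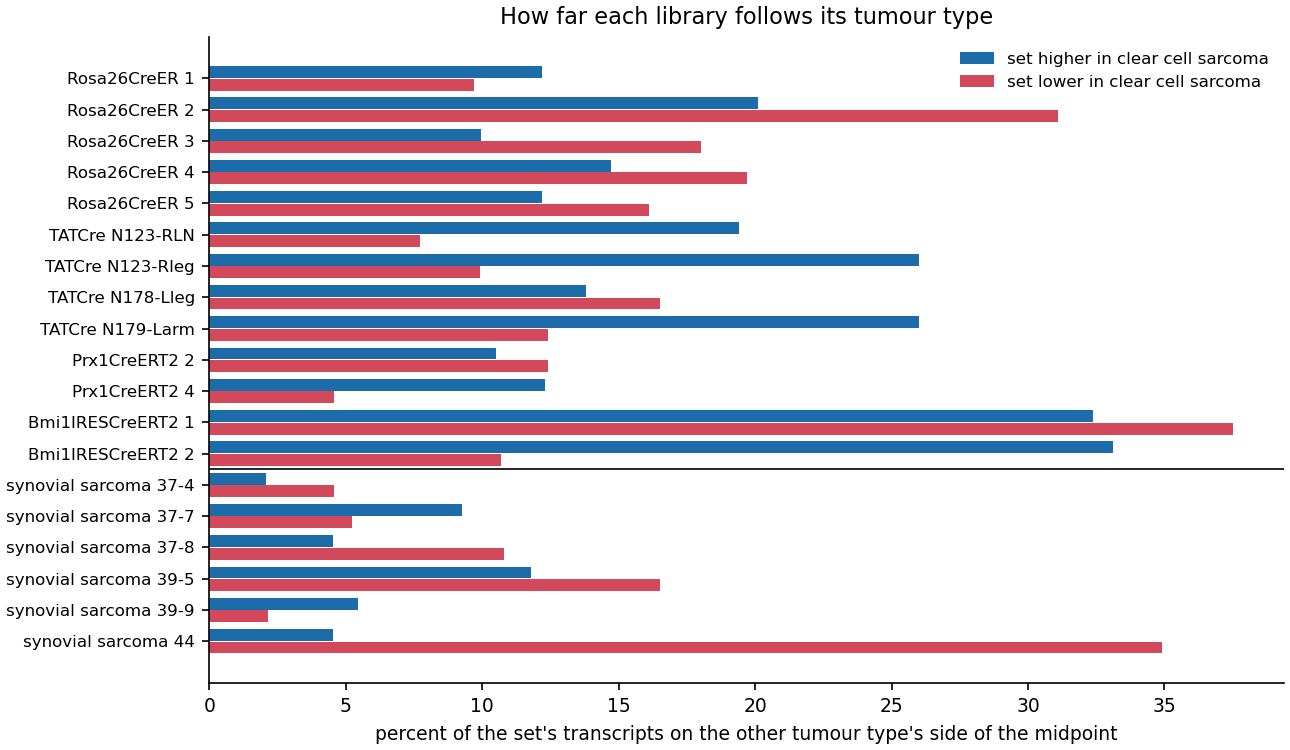
Bars give, for each of the 19 libraries, the percent of transcripts of the higher set (blue) and of the lower set (red) that lay on the other tumour type's side of the midpoint. For the lower set, Bmi1IRESCreERT2 1 (37.5%), Rosa26CreER 2 (31.1%) and synovial sarcoma 44 (34.9%) are the highest of their types, and for the higher set Bmi1IRESCreERT2 2 (33.1%) and Bmi1IRESCreERT2 1 (32.4%) are.

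Each Cre group of clear cell sarcomas was also set against the same 6 synovial sarcomas, which these 4 contrasts share. TATCre tumours differed from synovial sarcoma at 4813 transcripts (31.6%), 1137 higher (7.47%) and 3676 lower (24.1%). Rosa26CreER tumours differed at 2448 (16.1%), 886 higher (5.82%) and 1562 lower (10.3%). Prx1CreERT2 tumours differed at 2194 (14.4%), 608 higher (3.99%) and 1586 lower (10.4%), and Bmi1IRESCreERT2 tumours at 1115 (7.32%), 309 higher (2.03%) and 806 lower (5.29%). Group sizes of 4, 5, 2 and 2 libraries, in that order, affect these counts. Libraries sharing a title number (N123 in TATCre, 37 and 39 in synovial sarcoma) were counted separately. These contrasts were not refitted with such libraries averaged. In the set of 864 the median log2 fold change was 1.78 in Rosa26CreER, 1.48 in TATCre, 1.78 in Prx1CreERT2 and 1.29 in Bmi1IRESCreERT2. In the set of 2539 it was -1.11, -1.45, -1.46 and -1.07 in the same order. In Bmi1IRESCreERT2 the fold change was not positive in 37 of the 864 and not negative in 86 of the 2539, the group with the most such transcripts. Both sets were chosen on the mean of all these tumours, in which the larger Cre groups weigh more. The values by Cre group therefore only describe the sets.

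Single libraries moved these counts. The TATCre count was 2947 without N123-Rleg, which had the fewest transcripts above 0 of the 19 libraries at 11894. The Prx1CreERT2 count was 1114 without library 2 and 762 without library 4, and the Bmi1IRESCreERT2 count was 693 without library 1 and 487 without library 2. In the last 4 fits the remaining library was assumed to vary like the other groups. After quantile normalization most calls were higher in Rosa26CreER (54.4%), TATCre (58.2%) and Prx1CreERT2 (55.7%), whereas in Bmi1IRESCreERT2 41.1% were. The 4 counts were not compared by a test.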

How the data were processed

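RNA from mouse tumours was extracted with an RNeasy kit and DNase and made into TruSeq libraries, per the labels' protocols. CASAVA 1.8.2, Novoalign 2.07.03 and build mm9 are named in the submitters' processing notes. How reads were counted per transcript is not stated in the labels. The authors deposited RPKM values for 55419 transcripts in 32 libraries. Columns were matched to libraries by title, with 0 left over. Human microarray data were not used.

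RPKM is not a count, so limma 3.58.1 (R 4.3.3, intensity trend, two-sided, Benjamini-Hochberg adjustment over 15230 transcripts, threshold 0.05) was run on log2(RPKM + 1). The model had 4 tissue types in 32 libraries and kept transcripts reaching 1 RPKM in 6 or more libraries. Cre groups were fitted in a model of 7 groups. Whole reads and lengths were recovered from the RPKM steps for 16396 of 16398 transcripts detected in 6 or more libraries (tolerance 0.02 reads), giving depths of 8.11 to 13.1 M reads. What the recovered length stands for is not stated. Where transcripts of 1 locus overlap, counting could have split their reads.

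Transcripts printed by identifier were the 2 largest log2 fold changes per direction among calls with no overlap between groups, a mean of at least 5 RPKM in the higher group and a length of at least 200 bases. Members, lists and tests were chosen with earlier results of these data known. Alternatives were other scalings, pseudocounts, filters, variance models, recovered RPM and omitted libraries. The 4 library measures other than detection and depth, the sets shared by scalings, the presence rules, the midpoint counts, the level classes, 3 settings (log2 averaging, quantile normalization with a length minimum, median ratio scaling of RPM) and all alternatives for the Cre groups were added after seeing the data. Replicates differed by far more than sampling noise. On simulated data for clear cell sarcoma against synovial sarcoma (14863 transcripts), 2.0% of 2-fold, 59.2% of 4-fold and 98.0% of 8-fold changes were called, with 7 of 14664 unchanged transcripts. The simulation gave every transcript the same dispersion (0.321) and made all libraries independent, with no shift of scale between the types. Its shares therefore check the code and need not hold for the real contrast.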

Additional observations from a re-analysis of the deposited data

How the results depend on the processing

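Over 17 other settings and 19 fits without 1 library each, the total of 3403 calls left the range of 1.5 times only when libraries sharing a title number were averaged (1362 from RPKM, 1221 from log2 values). The higher and lower calls were then 389 and 973 from RPKM, and 388 and 833 from log2 values. The higher count moved to 1765 with quantile normalization, 1615 with quantile normalization over transcripts of at least 100 bases and 1353 with median ratio scaling of recovered RPM. The lower count moved to 1405, to 1492 in that second setting, and to 1615 with median ratio scaling of RPKM. The share of higher calls turned to 55.7% and 52.0% with the 2 quantile settings. Transcripts without overlap numbered 1202 without Rosa26CreER 2, TATCre N178-Lleg and synovial sarcoma 44. Omitting libraries cannot lower this count. Leaving out each library gave 2485 to 3839 calls, 669 to 975 higher, 1760 to 2864 lower, 759 to 1098 without overlap and 21.3% to 29.2% of calls higher. The 4 printed transcripts kept their direction and stayed past the threshold in all 36 settings (largest limma adjusted p = 7.73e-07). They were chosen for large differences without overlap in these same libraries, so this outcome was nearly fixed by the choice. The difference in transcripts above 0 was -1309 without the 3 libraries (exact permutation p = 0.0108, not adjusted). These 3 libraries had their nearest profile in the other tumour type. Rosa26CreER 2 and TATCre N178-Lleg, at 14320 and 14625 transcripts, were also high for clear cell sarcoma. Leaving them out widened the gap for that reason, so this p adds no support.

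For the Cre groups, quantile normalization turned the share of higher calls to 54.4% in Rosa26CreER, 58.2% in TATCre and 55.7% in Prx1CreERT2. Leaving out each library gave 1962 to 2451 calls in Rosa26CreER, 2947 to 5133 in TATCre, 762 to 2337 in Prx1CreERT2 and 487 to 1418 in Bmi1IRESCreERT2. The cause of these changes was not tested. No paired analysis was possible because clear cell and synovial sarcomas share no replicate numbers in the labels. Depth limits low transcripts: 9 reads of uc009czd.1 gave 0.389 RPKM in synovial sarcoma 44.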
